A study of Mus musculus and Homo sapiens with 11 samples.

Results

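RNA-seq of a mouse mammary tumour cell line was used to describe the tumour suppressor p53 (Trp53), its inhibitors Mdm2 and Mdm4, and 7 genes that p53 switches on: Cdkn1a, Ccng1, Bax, Bbc3, Pmaip1, Eda2r and Phlda3. These 10 genes were picked by symbol, all 10 were listed among the 24062 genes of the deposited table, and all 10 passed the filter on low values that left 13821 genes for testing. MMTV-ErbB2-BrM 2a (BrM from here on) is a brain metastatic derivative of the MMTV-ErbB2 breast cancer line and had 3 libraries. It was set against the parental MMTV-ErbB2 line, also with 3 libraries. In MMTV-ErbB2 tumours the mouse mammary tumour virus promoter, which is active in mammary epithelium, drives the receptor tyrosine kinase ErbB2, a transgene that the name gives to both groups. The labels name 1 derivative and 1 parental line, give the polyadenylated RNA of cultured cells as the material, and do not say whether replicate libraries were grown separately. A p-value here is thus a statement about library-to-library spread, part of which could be technical. The 5 libraries of the human line HCC1954 in the series were not analysed here.

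p53 is a transcription factor that is held at a low protein level while cells are unstressed. Mdm2 is a ubiquitin ligase that marks p53 for destruction and is itself a p53 target, which closes a negative feedback loop, and Mdm4 is a related protein that masks the part of p53 that activates transcription. When DNA is damaged or an oncogene is active, p53 is freed and raises genes that stop the cell cycle (Cdkn1a, which encodes the kinase inhibitor p21), genes of mitochondrial cell death (Bax, Bbc3 and Pmaip1, which encode Bax, Puma and Noxa) and genes that tune the response. Much of this control acts on the p53 protein, which RNA levels do not report.

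p53 binds DNA as a tetramer, at pairs of 10-base sequences that follow the p53 decamer consensus. Windows of 300 bases around transcript starts (250 before and 50 after) were read from RefSeq on GRCm38.p6 and searched for that consensus, which reads alike on both strands. Windows were found for 9 of the 10 genes, 13 windows in all, and none for Pmaip1. Of these 9 genes, 5 had at least 1 match, against 9.55% of the 27025 genes with a window. Only the upstream window of Cdkn1a among the 13 held a pair of matches with at most 13 bases between them, as did 24 of all 32851 windows. The pair began at positions -73 and -51 relative to the start, with 12 bases between. The 10 bases directly after the second match miss the consensus at their first base only, so they are not marked. The lone matches began at -186 in Mdm2 (GAACTTGCCT), -185 in Ccng1 (GGGCAAGCCT), -201 in Bax (AGGCAAGCTT) and -75 in Trp53 (GGACTTGCCC). A match is a description of letters and does not show that p53 binds there. Many known p53 sites lie outside such windows. The windows of 4 genes are given because those genes represent the feedback loop (Mdm2), the arrest target with the pair (Cdkn1a), the gene that was higher in BrM (Ccng1) and a target that was nearly absent from BrM (Eda2r, no match). Capitals mark matches to the consensus.
Cdkn1a, upstream start, chr17:29090729-29091028, plus strand: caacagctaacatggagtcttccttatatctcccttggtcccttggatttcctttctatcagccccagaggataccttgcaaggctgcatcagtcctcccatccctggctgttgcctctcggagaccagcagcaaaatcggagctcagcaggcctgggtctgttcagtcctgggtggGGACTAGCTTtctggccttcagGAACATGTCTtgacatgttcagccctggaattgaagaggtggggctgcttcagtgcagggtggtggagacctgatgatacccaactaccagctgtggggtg
Mdm2, chr10:117710709-117711008, minus strand: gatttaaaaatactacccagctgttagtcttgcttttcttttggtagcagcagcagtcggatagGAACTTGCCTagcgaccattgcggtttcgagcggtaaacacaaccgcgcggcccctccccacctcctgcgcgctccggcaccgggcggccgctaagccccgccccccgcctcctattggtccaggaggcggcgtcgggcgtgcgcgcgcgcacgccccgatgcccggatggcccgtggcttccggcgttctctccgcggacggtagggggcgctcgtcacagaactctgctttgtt
Ccng1, chr11:40755237-40755536, minus strand: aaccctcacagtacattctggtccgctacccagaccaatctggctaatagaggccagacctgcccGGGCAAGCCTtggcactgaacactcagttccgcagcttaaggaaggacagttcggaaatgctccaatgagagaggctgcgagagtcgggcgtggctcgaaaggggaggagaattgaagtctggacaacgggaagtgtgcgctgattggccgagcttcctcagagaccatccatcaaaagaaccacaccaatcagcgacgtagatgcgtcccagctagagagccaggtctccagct
Eda2r, chrX:97377160-97377459, minus strand: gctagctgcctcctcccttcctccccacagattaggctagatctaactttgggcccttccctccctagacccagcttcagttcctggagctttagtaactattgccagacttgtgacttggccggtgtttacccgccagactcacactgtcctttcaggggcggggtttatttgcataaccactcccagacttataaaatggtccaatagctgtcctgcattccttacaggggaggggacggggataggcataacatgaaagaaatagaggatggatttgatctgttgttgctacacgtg

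Reads assigned to genes numbered 29877087 to 39106969 in BrM and 39304974 to 46683735 in parental libraries. BrM replicate 1 stood apart: 3614 and 3654 of the tested genes were at least 2-fold apart between it and BrM replicates 2 and 3, against 220 between BrM replicates 2 and 3 and 976 to 1683 between parental libraries. BrM replicates 2 and 3 still differed beyond sampling noise (chi-square per degree of freedom 11.3). This value was 298 and 310 between BrM replicate 1 and the other BrM libraries, and 125 to 174 between parental libraries. BrM replicates 2 and 3 were kept as separate samples, though such an excess does not show that they were grown separately. A fit with them averaged is given among the alternatives below. The labels name a pair of library kits and a pair of media without assigning them to libraries, so kit, medium and group cannot be told apart. All 8 mammary epithelial markers (Epcam, Krt8, Krt18, Cdh1, Cldn3, Cldn7, Erbb2 and Elf3) were detected, with a summed level of 204506 to 241752 scaled reads in BrM and 136515 to 148380 in the parental line. Krt8, Krt18, Cldn3, Cldn7 and Elf3 rose, and Epcam and Erbb2 missed the threshold. Cdh1 fell (a mean of 15921 in BrM and 24720 in the parental line, limma adjusted p = 0.0113). The summed marker levels of fibroblasts and pericytes, macrophages and brain cells did not overlap between the groups, while those of endothelial cells did. The 10 fibroblast and pericyte markers summed to 224 to 1112 in BrM and 4647 to 16105 in the parental line, with Dcn, Lum and Thy1 at 0 in BrM and Lum at 0 in the parental line. The parental sums were mostly Postn and Pdgfrb. Of the 6 fibroblast and pericyte markers tested, 4 fell (Dcn, Col1a2, Postn and Pdgfrb), against 15.8% of all tested genes. The other tested markers, Col1a1 and Pdgfra, overlapped between the groups and missed the threshold. Dcn averaged 488 in the parental line, and Col1a2 averaged 0.407 in BrM and 58.3 in the parental line. The 8 macrophage markers in the table summed to 2422 to 11705 in BrM and 21715 to 41020 in the parental line, sums that were mostly Cd14. Of the 6 macrophage markers tested Cd14 fell (a mean of 4208 in BrM and 31182 in the parental line), Csf1r rose (a mean of 268 in BrM and 7.52 in the parental line), and the other 4 missed the threshold, while the pan-leukocyte marker Ptprc reached at most 4.88 and Tyrobp at most 0.957 in any library. The 6 endothelial markers summed to at most 25.6 in any library. The 8 brain cell markers summed to 2212 to 2338 in BrM and 1004 to 1343 in the parental line, with Aqp4 and Olig1 at 0 in BrM and Olig1 at 0 in the parental line. These sums were mostly Mbp (a mean of 2085 in BrM and 1154 in the parental line). Gfap averaged 106 in BrM and 23.4 in the parental line. Snap25, Syt1 and Rbfox3 reached at most 5.67, 4.88 and 1.22 in any library. In such bulk samples fewer cells of a type and less RNA per cell cannot be told apart, and the part of these markers in the members' values was not tested.

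The comparison asked how the p53 pathway differed between the brain metastatic derivative and its parental line. Trp53 itself was abundant throughout, and its difference missed the threshold. Pmaip1 and Eda2r, easily detected in the parental line, were close to absent from BrM. Bax was 1.71-fold lower and Ccng1 1.54-fold higher in BrM, and the other 6 members did not pass. By limma on log2 of the value plus 1, with Benjamini-Hochberg adjustment over all 13821 tested genes and a threshold of 0.05, 4 of the 10 members differed, 1 higher and 3 lower in BrM. Among all tested genes 28.1% differed, 12.2% higher and 15.8% lower, and with 10 members a count of 4 is near that background. The members' median log2 fold change was -0.12, against -0.05 over all tested genes. BrM and parental values did not overlap for the same 4 members, against 48.0% of all tested genes (22.3% with BrM higher and 25.7% with BrM lower). Only 2 members, Pmaip1 and Eda2r, passed whichever library was left out.

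**Figure D1:**
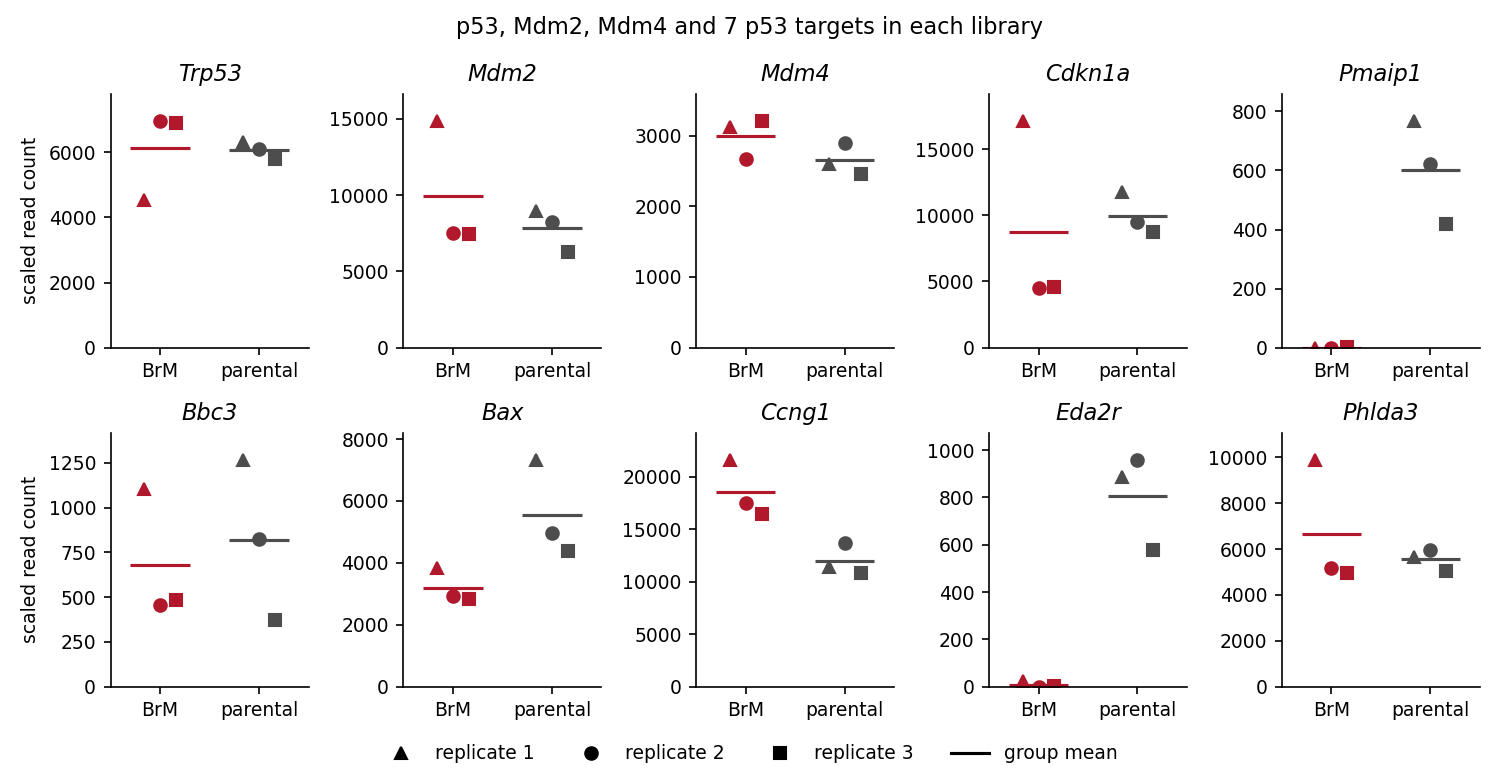
Scaled read count (vertical axes from 0, 1 scale per gene) of each member in the 3 BrM and 3 parental libraries, with marker shapes for replicates and lines for group means. Pmaip1 and Eda2r sit at or near 0 in BrM, and BrM replicate 1 is the highest of the 6 libraries for Mdm2, Cdkn1a, Ccng1 and Phlda3.

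The transcription factor came first in the pathway. Trp53 (ENSMUSG00000059552.13, chromosome 11, 69580359 to 69591873, plus strand, GRCm38) had 4540, 6965 and 6888 scaled reads in BrM replicates 1, 2 and 3 and 6307, 6109 and 5785 in parental replicates 1, 2 and 3. The groups overlapped, because BrM replicate 1 lay below and BrM replicates 2 and 3 above all parental libraries. Its log2 fold change was -0.01 with a 95% interval of -0.47 to 0.45 (limma adjusted p = 0.971). A processed pseudogene, Trp53-ps, is annotated on chromosome 17 and had no row in the table, and how reads that match both were counted is not given in the sources used here. RNA levels do not show whether the protein was stable, active or mutated.

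Neither inhibitor passed the test. Mdm2 had 14886, 7496 and 7447 scaled reads in BrM replicates 1, 2 and 3 and 8942, 8247 and 6304 in the parental line. BrM replicate 1 was the highest of the 6, and BrM replicates 2 and 3 lay within the parental range. The log2 fold change of Mdm2 was 0.28 (95% interval -0.45 to 1.01, limma adjusted p = 0.531), and it was -0.05 without BrM replicate 1. Mdm4 varied less, with 3127, 2663 and 3209 scaled reads in BrM and 2600, 2889 and 2453 in the parental line. The groups overlapped for Mdm4, and its log2 fold change was 0.18 (95% interval -0.15 to 0.50, limma adjusted p = 0.367).

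Among the targets of arrest and feedback, Cdkn1a differed more between BrM libraries than between groups. It had 17147, 4514 and 4583 scaled reads in BrM replicates 1, 2 and 3 and 11726, 9459 and 8748 in the parental line. BrM replicate 1 was thus above, and BrM replicates 2 and 3 below, every parental library. The log2 fold change was -0.48 (95% interval -1.73 to 0.76, limma adjusted p = 0.526). Without BrM replicate 1 it was -1.12, or 2.18-fold lower, and passed (limma adjusted p = 0.00180), in a fit that called 47.2% of all tested genes, 21.1% higher and 26.1% lower. Ccng1 encodes cyclin G1, a p53 target that takes part in feedback on Mdm2. It had 21596, 17514 and 16385 scaled reads in BrM and 11372, 13667 and 10862 in the parental line, with every BrM library above every parental one. Ccng1 rose 1.54-fold (log2 fold change 0.63, SE 0.16, limma adjusted p = 0.0308). The call was lost without BrM replicate 2 or 3 or any 1 parental library (adjusted p 0.0502 to 0.0988), with a fold of 1.47 to 1.65 throughout these fits.

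Of the 3 mitochondrial death genes, Pmaip1 and Bax fell and Bbc3 did not pass. Pmaip1 encodes Noxa, a BH3-only protein that binds the survival factor Mcl1. It had 0, 0 and 0.931 scaled reads in BrM, the last being 1 read, and 768, 620 and 419 in the parental line, from 1952 reads. The groups were far apart. By the ratio of pooled reads Pmaip1 was 1762-fold lower in BrM (exact 95% interval 316 to 69621, counting error only), and limma gave a log2 fold change of -8.88 (SE 0.44, adjusted p = 0.000115). The gene lies at 66458533 to 66465565 on chromosome 18. Its nearest tested neighbours were looked up after its values were seen. Ccbe1, 156 kb away, rose (a mean of 12238 in BrM and 2895 in the parental line, limma adjusted p = 0.00244), and Lman1, 436 kb away, fell 1.52-fold (5872 in BrM and 8943 in the parental line, limma adjusted p = 0.00736). Of the 356 other tested genes of that chromosome, 51 rose and 52 fell, against 12.2% and 15.8% of all tested genes.

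Bax encodes the effector that permeabilises the outer mitochondrial membrane. It had 3844, 2915 and 2822 scaled reads in BrM and 7331, 4952 and 4391 in the parental line, and every BrM library lay below every parental one. Bax fell 1.71-fold (log2 fold change -0.78, SE 0.23, limma adjusted p = 0.0476), close to the threshold. The call was lost without BrM replicate 2 or 3 or any 1 parental library (adjusted p 0.0507 to 0.142), and with upper-quartile scaling (adjusted p = 0.0817), always with Bax lower in BrM. A protein-coding gene annotated on the same strand overlaps Bax, and a pseudogene and a transcript on the other strand overlap Mdm4 and Cdkn1a. None of these had a row in the table, and whether reads were counted by strand is not given in the sources used here. Bbc3 encodes Puma, a BH3-only activator of Bax. It had 1103, 458 and 484 scaled reads in BrM and 1268, 827 and 371 in the parental line, a spread of more than 2-fold within both groups. The groups overlapped, and the log2 fold change of Bbc3 was -0.22 (95% interval -1.51 to 1.06, limma adjusted p = 0.789), an interval that spans changes in both directions.

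The last pair of targets act outside the mitochondrial route. Eda2r encodes a receptor of the tumour necrosis factor receptor family that binds ectodysplasin A2. It had 23.2, 0 and 1.86 scaled reads in BrM (19, 0 and 2 reads) and 885, 960 and 580 in the parental line. Every BrM library lay far below the parental ones, and most of the BrM reads came from BrM replicate 1. Eda2r was 114-fold lower by pooled reads (exact 95% interval 74.3 to 184, counting error only) and 193-fold lower by limma (log2 fold change -7.59, SE 1.10, adjusted p = 0.00409). The log2 fold change was -8.87 when BrM replicate 1 was left out and -6.57 when BrM replicate 2 was. Eda2r lies at 97333840 to 97377216 on the X chromosome. Heph, a tested gene 759 kb away that was also looked up after the values were seen, fell too: it had no read in BrM and averaged 85.4 in the parental line (limma adjusted p = 0.00171). Over the whole X chromosome, 55 of the other 421 tested genes rose and 60 fell, against 12.2% and 15.8% of all tested genes. Phlda3 encodes a protein that opposes recruitment of the kinase Akt to membranes. It had 9896, 5171 and 4969 scaled reads in BrM and 5663, 5941 and 5047 in the parental line, with BrM replicate 1 above all others, and its log2 fold change was 0.19 (95% interval -0.47 to 0.86, limma adjusted p = 0.638).

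**Figure D2:**
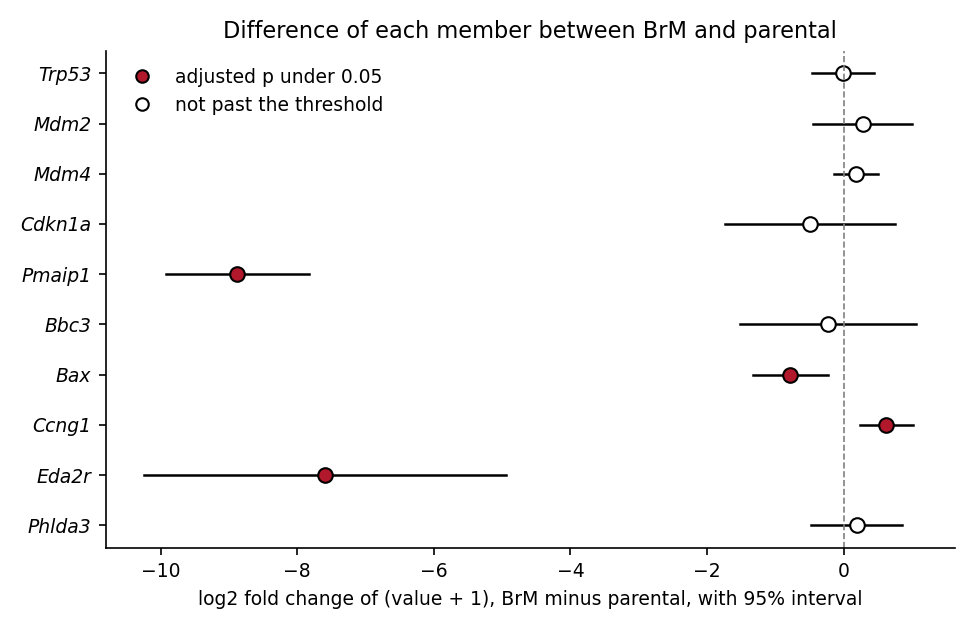
Log2 fold change of each member (horizontal axis, BrM minus parental on log2 of the value plus 1) with its 95% interval from limma, 3 libraries per group. Filled points passed at an adjusted p under 0.05: Pmaip1 at -8.88, Eda2r at -7.59, Bax at -0.78 and Ccng1 at 0.63.

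Levels of different genes were compared per kilobase of annotated exon sequence (GENCODE M21), over n = 3 libraries per group, and means elsewhere in the text are also given ± SD of 3 libraries. In BrM the order was Ccng1 (5267 ± 781 scaled reads per kilobase), Phlda3 (4284 ± 1788), Cdkn1a (2462 ± 2047), Bax (2026 ± 359), Mdm2 (1956 ± 842), Trp53 (1516 ± 341), Bbc3 (321 ± 172), Mdm4 (203 ± 19.9), Eda2r (1.42 ± 2.19) and Pmaip1 (0.114 ± 0.197). In the parental line it was Phlda3 (3560 ± 294), Bax (3527 ± 991), Ccng1 (3408 ± 425), Cdkn1a (2808 ± 438), Mdm2 (1541 ± 269), Trp53 (1500 ± 65.2), Bbc3 (387 ± 211), Pmaip1 (221 ± 64.1), Mdm4 (179 ± 15.0) and Eda2r (137 ± 34.2). Neighbours in these orders overlapped within 1 SD of their means, apart from Trp53 over Bbc3 and Mdm4 over Eda2r in BrM, and Cdkn1a over Mdm2 and Trp53 over Bbc3 in the parental line. Eda2r and Pmaip1 were thus already among the 3 lowest members of the parental line, together with Mdm4, whose annotated exon length of 14798 bases lowers its value per kilobase.

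Much of the spread within BrM was BrM replicate 1. The ratio of 1.5 used here was chosen after the values were seen. For 5 of the 10 members BrM replicate 1 stood at least 1.5 times above the mean of BrM replicates 2 and 3, against 27.0% of tested genes. These were Cdkn1a (3.77 times), Bbc3 (2.34), Mdm2 (1.99), Phlda3 (1.95) and Eda2r (24.9, on few reads). Mdm2, Cdkn1a, Ccng1 and Phlda3 were higher in BrM replicate 1 than in any other library, as were 26.8% of tested genes. Trp53 stood at 0.655 times the mean of the other BrM libraries and was lowest there, as were 27.9% of tested genes. Among other p53 targets, 7 of 13 tested arrest targets, 10 of 19 death targets and 14 of 28 repair and metabolism targets were at least 1.5 times higher in BrM replicate 1, while 2, 1 and 4 genes of these lists stood at 1/1.5 or less. No gene of 24 p53 regulators reached 1.5, though Rpl5 (1.49) and Ppm1d (1.46) came close, and 8 stood at 1/1.5 or less, as did 20.9% of all tested genes. BrM replicate 1 was the highest library for 8 of the 24 and the lowest for 14, against 26.8% and 27.9% of all tested genes. Examples chosen after their values were seen are the death receptor Fas, at 1226, 51.6 and 61.5 scaled reads in BrM replicates 1, 2 and 3 and 1834, 1707 and 1470 in the parental line, and Gadd45a, a growth arrest gene, at 4962, 328 and 273 in BrM and 5951, 1899 and 1084 in the parental line. Trp53inp1, which promotes p53-dependent death, had 4776, 1176 and 1148 in BrM and 2421, 1757 and 1155 in the parental line.

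**Figure D3:**
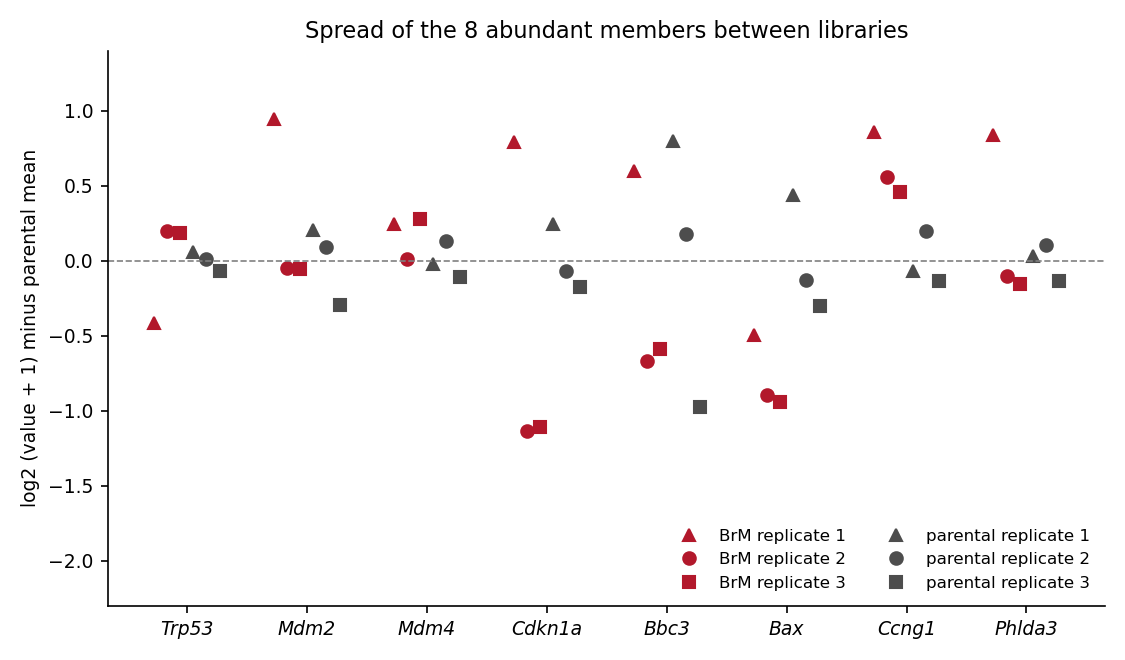
Log2 of (value plus 1) in each library minus the parental mean (vertical axis) for the 8 members other than Pmaip1 and Eda2r, with BrM libraries left of parental ones. The triangle of BrM replicate 1 stands apart from the other BrM libraries for Cdkn1a, Mdm2, Phlda3, Bbc3 and, downward, Trp53.

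p21, the product of Cdkn1a, lowers transcription of cell cycle genes through the DREAM repressor complex. The 25 cell cycle genes listed for that route summed to 42580, 153233 and 152955 scaled reads in BrM replicates 1, 2 and 3 and 106450, 158957 and 161306 in the parental line. BrM replicate 1 was thus the lowest library for their sum and the highest for Cdkn1a. BrM replicates 2 and 3 had less Cdkn1a than any parental library, and their sums lay within the parental range. Whether Cdkn1a and these sums were linked was not tested. For 24 of the 25 it was the lowest of all 6 libraries, and for 24 it stood at 1/1.5 or less of the mean of the other BrM libraries, against 20.9% of tested genes. The mitotic cyclin gene Ccnb1, chosen after its values were seen, had 1457, 5925 and 5806 scaled reads in BrM and 5287, 7806 and 7604 in the parental line. Between groups 1 of the 25 passed: E2f1, a transcription factor of S phase entry, fell 1.90-fold (1368 ± 49.2 in BrM against 2612 ± 308 in the parental line, limma adjusted p = 0.00434). The list's median log2 fold change was -0.44, against -0.05 over all tested genes, and the 1 called gene of 25 compares with 28.1% of all tested genes. Without BrM replicate 1, 4 of the 25 passed, 3 higher and 1 lower in BrM, against 47.2% of all tested genes in that fit.

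**Figure D4:**
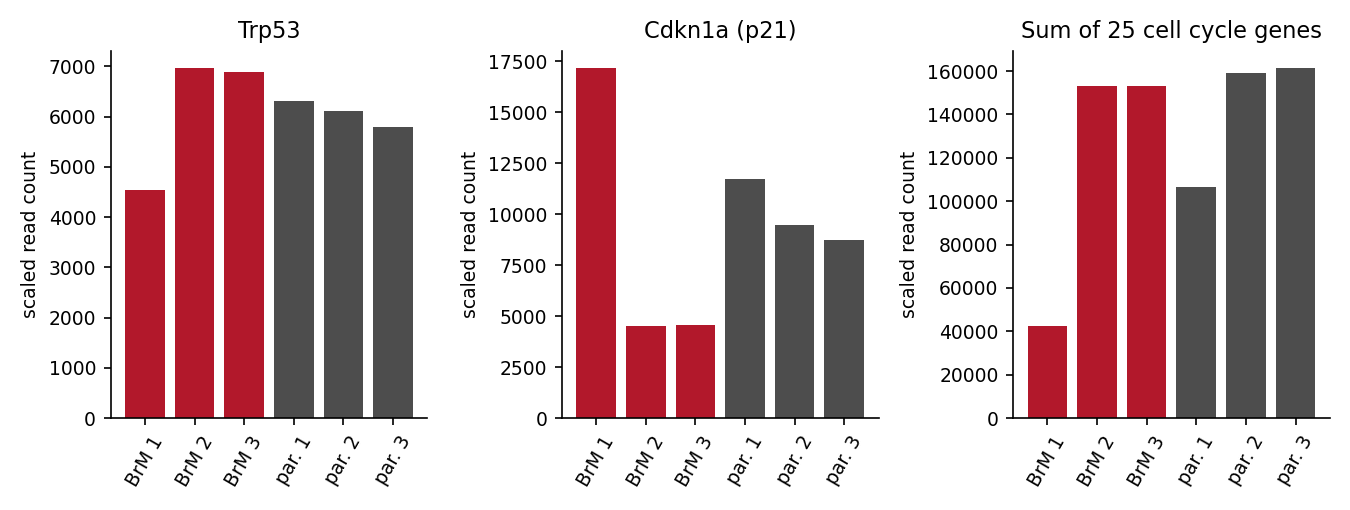
Scaled read counts (vertical axes from 0) of Trp53, of Cdkn1a and of the sum of 25 cell cycle genes listed for the p21 and DREAM route, 1 bar per library, BrM in red and parental (par.) in grey. BrM replicate 1 has the highest Cdkn1a (17147) and the lowest sum (42580) of the 6 libraries.

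Upstream of p53, 3 of the 24 tested regulators differed and all 3 were higher in BrM (12.5%, against 28.1% of all tested genes). Cdkn2a, which encodes the Mdm2 inhibitor Arf as well as the kinase inhibitor p16, had 1316, 1091 and 1149 scaled reads in BrM and 5.09, 3.29 and 0.944 in the parental line. The groups were far apart (log2 fold change 8.32, SE 0.46, limma adjusted p = 0.000154), and a gene total does not say which of its products the reads came from. Npm1, nucleophosmin, which holds Arf in the nucleolus, rose 2.09-fold (60067 ± 10978 in BrM against 28420 ± 1499 in the parental line, limma adjusted p = 0.00674). Rpl5, a ribosomal protein that can bind Mdm2, rose 1.84-fold (58220 ± 14477 in BrM against 31509 ± 6981 in the parental line, limma adjusted p = 0.0424). Rpl5 lost its call without BrM replicate 2 or 3 or any 1 parental library (adjusted p 0.0616 to 0.102). The kinases Atm, Atr, Chek1 and Chek2, the deubiquitinase Usp7 and the phosphatase Ppm1d, named here for their roles, did not pass (limma adjusted p 0.453 to 0.856). The median of the list was -0.11. Of the p53 paralogs, Trp63 was at 25.6, 1.91 and 2.79 scaled reads in BrM and 2314, 1368 and 1038 in the parental line, 224-fold lower (limma adjusted p = 0.00151), a fold of 447 with BrM replicate 1 left out and 148 with BrM replicate 2 left out. Trp73 had 1 read in BrM replicate 1 and none in the other 5 libraries.

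Downstream of p53, of 13 tested arrest targets 3 rose, 1 fell and 9 did not pass (median log2 fold change 0.01). The share called was 30.8%, against 28.1% of all tested genes (12.2% higher and 15.8% lower). Sfn, the cell cycle inhibitor 14-3-3 sigma, rose 5.85-fold (1839 ± 390 in BrM against 332 ± 161 in the parental line, limma adjusted p = 0.00371). The polo-like kinase gene Plk3 rose 1.87-fold (1386 ± 112 in BrM against 750 ± 150 in the parental line, limma adjusted p = 0.0144) and lost its call without BrM replicate 2 or 3 or parental replicate 2 or 3 (adjusted p 0.0507 to 0.0639). Ptprv, a phosphatase gene, rose 10.7-fold (257 ± 216 against 20.9 ± 12.2, limma adjusted p = 0.0144), and 6.87-fold without BrM replicate 1. The retinoblastoma gene Rb1 fell 3.00-fold (574 ± 268 in BrM against 1616 ± 109 in the parental line, limma adjusted p = 0.0122), with the call lost without parental replicate 1 or 2 (adjusted p 0.0507 and 0.0516). The count of 4 called arrest targets became 8 without BrM replicate 1 (4 higher and 4 lower, in a fit that called 47.2% of all tested genes) and 2 without parental replicate 2.

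Of 19 tested death targets 3 fell and 16 did not pass (median log2 fold change -0.03), a share called of 15.8% against 28.1% of all tested genes. Without BrM replicate 1, 7 of the 19 passed, 1 higher and 6 lower, against 47.2% of all tested genes. Casp1, the inflammasome protease, fell 4.25-fold (657 ± 194 in BrM against 2756 ± 553 in the parental line, limma adjusted p = 0.00205). Steap3, a ferrireductase also linked to vesicle release, fell 2.43-fold (1237 ± 42.4 in BrM against 3088 ± 855 in the parental line, limma adjusted p = 0.00674), and the lysosomal protease Ctsd fell 2.67-fold (34945 ± 10372 in BrM against 92003 ± 17815 in the parental line, limma adjusted p = 0.00957). Of 28 tested repair and metabolism targets 2 rose, 6 fell and 20 did not pass, with a median log2 fold change of -0.23. The share called was 28.6%, against 28.1% of all tested genes. The count of 8 became 17 without BrM replicate 1 (against 47.2% of all tested genes) and 5 without BrM replicate 2 or BrM replicate 3. Among the genes that rose was Fdxr, a mitochondrial ferredoxin reductase, named after its values were seen (1.86-fold, limma adjusted p = 0.0398). Mgmt, which repairs alkylated guanine, had 1 read in each BrM library and 163, 168 and 109 scaled reads in the parental line (limma adjusted p = 0.000193). Abcb1a, a drug efflux pump gene, had 24.4, 3.83 and 0.931 in BrM and 1376, 742 and 1156 in the parental line, 171-fold lower (limma adjusted p = 0.00221), a fold of 346 with BrM replicate 1 left out and 95.5 with BrM replicate 3 left out. The lipid transfer gene Pltp fell by 2.81 on the log2 scale (128 ± 30.0 in BrM against 947 ± 383 in the parental line, limma adjusted p = 0.00344) and the glutathione peroxidase Gpx1 fell 2.13-fold (5867 ± 939 in BrM against 12438 ± 1527 in the parental line, limma adjusted p = 0.00454).

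**Figure D5:**
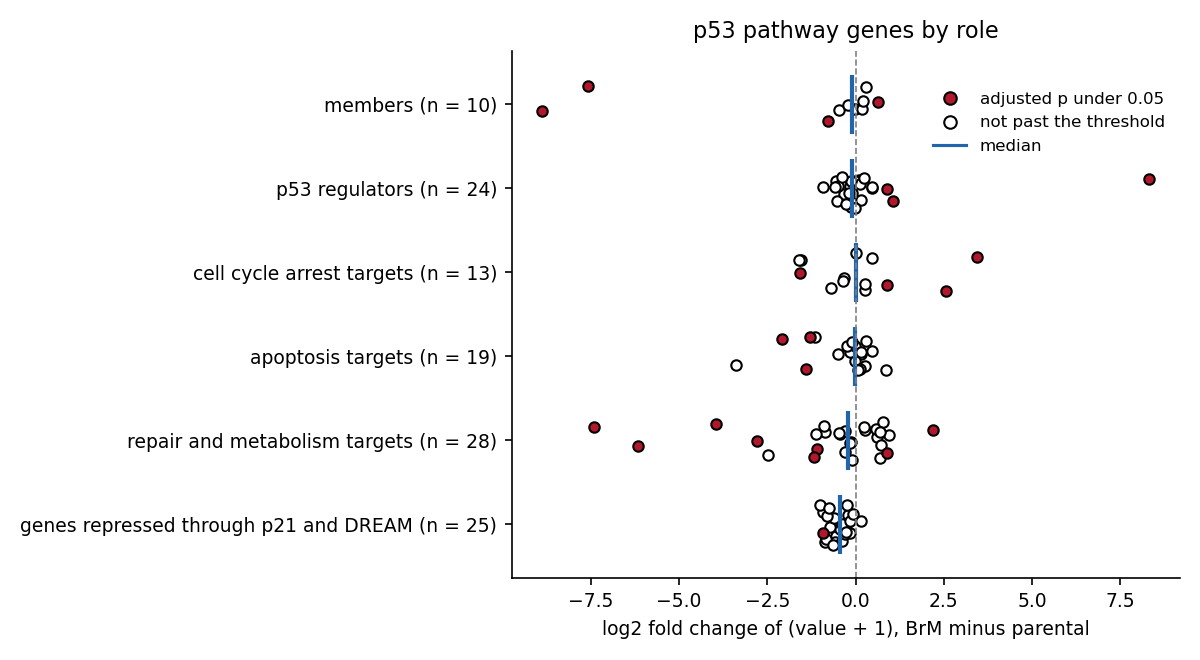
Log2 fold change (horizontal axis, BrM minus parental) of the members and of the tested genes of each list drawn, 1 point per gene, filled where the adjusted p was under 0.05, with the median as a bar. The medians drawn lie between -0.44 (cell cycle genes) and 0.01 (arrest targets), Cdkn2a is at 8.32, and the paralog Trp63 (-7.81) is not drawn.

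The genes whose values over the 6 libraries were most like those of Trp53, by Pearson correlation of log2 of the value plus 1 over the 10909 genes whose mean reached 100, were Hira (r = 0.995), Insig1 (0.994) and Ccdc69 (0.994). Among those most like Cdkn1a were Galk2 (0.9996) and Rab40c (0.9994). For Trp53 94 genes and for Cdkn1a 228 genes exceeded 0.95, a description of 6 points that BrM replicate 1 dominates, since it is the lowest library for Trp53 and the highest for Cdkn1a.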

How the data were processed

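Polyadenylated RNA was sequenced from 3 BrM and 3 parental mouse libraries. The deposited signal values were read counts scaled per library by the authors. STAR, HTSeq, GRCh38 and GRCm38 are named in the submitters' processing notes without versions or roles, and the tool that gave the scaling is not given in the sources used here. All values above 0 were whole multiples of the value of 1 read to within 0.01 read (100%), so whole reads were recovered. Column numbers 1 and 2 were matched to titles with those numbers, and column 3 of each group to the group only. Symbols turned into dates (27) were counted and not named.

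Genes whose mean reached 10 entered a two-sided limma fit (version 3.58.1 in R 4.3.3) of log2(value + 1), with an intensity trend and group as the only term. The alternatives changed the pseudocount, filter, scaling, moderation or weights, added a replicate block or a covariate for libraries with a number in their title, left out 1 library at a time, or applied edgeR 4.0.16 or DESeq2 1.42.0 to the recovered reads. Averaging BrM replicates 2 and 3 was added after seeing the data. The scripts were tested on simulated data, with 100 genes planted at a log2 difference of 1 and 100 at 2. The limma fit recovered 24 and 79 of them, with 4 false calls. A gene that did not pass is thus not shown to be unchanged. Members and lists were chosen with earlier results of these data known. Named genes were the members, up to 4 called genes of each list with the smallest p (the 2 of highest mean where none was called), Cdkn2a, Trp63, Trp73 and the 3 genes most like Trp53 and Cdkn1a. Predicted and clone symbols were not named. Other genes in the text were named for their roles or after their values were seen. 1 gene that this rule names is not reported here. Intervals of read ratios cover counting error only, since reads without molecular identifiers are not independent molecules.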

Additional observations from a re-analysis of the deposited data

How the results depend on the processing

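Over the 21 alternatives Pmaip1 and Eda2r were called lower in BrM in every one, with log2 fold changes of -10.65 to -6.80 and -9.00 to -6.33. Bax kept its direction in all 21 and lost its call in 11, and Ccng1 kept its direction in all 21 and lost its call in 8. Cdkn1a was lower in BrM in all 21 and passed in 2, array weights and without BrM replicate 1. Bbc3 passed in 1, array weights. Trp53, Mdm2, Mdm4 and Phlda3 passed in none, and Trp53, Mdm2, Phlda3 and Bbc3 changed sign among them. The scaling that moved the median of all genes most was the upper quartile, at 0.08 against -0.05.

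The 3881 called genes became 8485 with array weights, 2029 with the replicate block, 2279 with BrM replicates 2 and 3 averaged and 2191 to 6519 when 1 library was left out. The 4 called members became 2 without the intensity trend, with the replicate block and with the averaged replicates, and 2 to 5 when 1 library was left out. Array weights, with 8485 of 13821 tested genes called, called 9 of 24 regulators, 9 of 13 arrest and 13 of 19 death targets. They also called 23 of 28 repair targets and 4 of 25 cell cycle genes. DESeq2 called 5 of 19 death targets, against 5075 of 13821 tested genes. Averaging left 5 of 28 repair targets, against 2279 of 13821 tested genes. With 1 library left out the counts were 2 to 4 regulators, 2 to 8 arrest, 3 to 7 death, 5 to 17 repair and 1 to 4 cell cycle genes. The block left 0 cell cycle genes by limma, with 9 at an unadjusted p under 0.05. Without the block limma, edgeR and DESeq2 each called 1. The cause of these moves was not tested, other than that fits without a library rest on fewer samples and that leaving out BrM replicate 1 keeps the closest pair of BrM libraries.

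The block covered the libraries numbered 1 and 2 in both groups, which share only a number in their labels. Their deviations from the group means correlated at 0.304 for number 1 and -0.088 for number 2 across tested genes. All pairs of a BrM and a parental library ranged from -0.341 to 0.326. Whether libraries of the same number shared a batch or culture was not tested. Depth, 29877087 to 46683735 assigned reads, limits values near 1 read, as for Pmaip1 and Mgmt in BrM.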
